A study of Mus musculus with 2 samples.

Results

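Pericyte barcodes of the mouse mesentery, and the endothelial transcripts found in them, are described here from 2 single-cell libraries. A barcode, the sequence tag that marks the transcripts of 1 droplet, was called a pericyte barcode when it held at least 3 unique molecular identifiers (UMIs, counted transcript molecules) of Rgs5, Notch3, Kcnj8, Higd1b, Cox4i2 and Ndufa4l2 together. It also had to hold no UMI of Ptprc, which encodes the leukocyte antigen CD45, and at most 2 of Dcn, the fibroblast proteoglycan decorin. The rule was applied to the 3143 barcodes that had 200 or more detected genes and a mitochondrial share of UMIs of no more than 10%. Of these 165 met it, 85 of 1484 in library 1 and 80 of 1659 in library 2. These are shares of 5.73% (exact 95% interval 4.60 to 7.03%) and 4.82% (3.84 to 5.97%). Each library came from the whole mesentery of 1 untreated wild-type male C57BL/6N mouse, taken apart with the enzyme blend Liberase DH and captured on the Chromium system with its 3′ chemistry. The mice are 2 replicates of 1 group, and every comparison below is between classes of barcodes that occur in both.

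Pericytes are mural cells that lie on the outside of capillaries and share a basement membrane with the endothelial cells they surround. Endothelial PDGF-B recruits and holds them through the receptor encoded by Pdgfrb, and Notch3 receives signals from ligands on the endothelium. Kcnj8 and Abcc9 encode the pore and the regulatory subunit of an ATP-sensitive potassium channel through which metabolism can set the membrane potential of mural cells. Rgs5 and Rgs4 encode regulators that shorten signalling through G-protein-coupled receptors. Cox4i2, Ndufa4l2 and Higd1b encode proteins of the mitochondrial respiratory chain or close relatives of such proteins.

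The members were divided by the summed UMIs of 5 endothelial genes, namely Cdh5, which encodes VE-cadherin, Cldn5, which encodes a tight-junction claudin, Gpihbp1, the capillary carrier of lipoprotein lipase, Egfl7 and Pecam1. Pericyte barcodes with at least 2 such UMIs are called high barcodes and those with at most 1 low barcodes. There were 84 high barcodes and 1 low barcode in library 1, and 75 high barcodes and 5 low barcodes in library 2. Endothelial barcodes, the class used for comparison, had at least 2 UMIs of the same 5 genes, none of the 6 pericyte genes, none of Ptprc and at most 2 of Dcn. They numbered 146 and 109. Leukocyte barcodes (at least 1 Ptprc UMI, 413 and 407) and fibroblast barcodes (no Ptprc and more than 2 Dcn UMIs, 548 and 736) served as classes of other cell types. No barcode sequence was shared by the libraries. Below, a pair of values gives library 1 and then library 2, and levels are CPM, the UMIs of a gene scaled to 1000000 UMIs of its class.

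Of these genes, 2 pairs are neighbours in the genome, each with 1 partner in the rule (Kcnj8, Rgs5) and 1 outside it (Abcc9, Rgs4), and their promoters are shown because both partners of each pair were found in pericyte barcodes. Kcnj8 and Abcc9 lie 16248 bp apart on chromosome 6, and Rgs5 and Rgs4 lie 45664 bp apart on chromosome 1. The windows below, from RefSeq on GRCm38.p6, run from 250 bases before to 50 after the start of the gene, at chr6:142571565-142571864 (minus strand), chr6:142702225-142702524 (minus), chr1:169655251-169655550 (plus) and chr1:169747593-169747892 (minus). Capitals mark TGGGAA, the core of the motif of RBPJ, the DNA-binding partner of Notch.
Kcnj8: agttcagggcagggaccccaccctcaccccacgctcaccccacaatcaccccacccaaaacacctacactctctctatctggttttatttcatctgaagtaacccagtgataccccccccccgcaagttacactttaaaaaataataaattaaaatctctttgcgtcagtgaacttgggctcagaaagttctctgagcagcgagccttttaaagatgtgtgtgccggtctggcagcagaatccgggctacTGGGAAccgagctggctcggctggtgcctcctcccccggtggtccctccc
Abcc9: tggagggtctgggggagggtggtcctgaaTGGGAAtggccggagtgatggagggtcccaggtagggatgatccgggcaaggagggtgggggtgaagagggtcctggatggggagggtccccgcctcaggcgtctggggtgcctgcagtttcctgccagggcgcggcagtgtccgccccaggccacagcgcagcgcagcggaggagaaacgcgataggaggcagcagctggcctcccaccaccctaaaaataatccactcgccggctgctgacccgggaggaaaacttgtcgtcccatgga
Rgs5: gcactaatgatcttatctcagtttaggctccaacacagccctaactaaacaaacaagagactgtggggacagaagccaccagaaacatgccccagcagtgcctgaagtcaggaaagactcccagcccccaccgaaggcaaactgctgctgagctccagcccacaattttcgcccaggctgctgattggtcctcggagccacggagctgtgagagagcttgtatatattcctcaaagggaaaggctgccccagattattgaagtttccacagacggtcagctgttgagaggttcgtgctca
Rgs4: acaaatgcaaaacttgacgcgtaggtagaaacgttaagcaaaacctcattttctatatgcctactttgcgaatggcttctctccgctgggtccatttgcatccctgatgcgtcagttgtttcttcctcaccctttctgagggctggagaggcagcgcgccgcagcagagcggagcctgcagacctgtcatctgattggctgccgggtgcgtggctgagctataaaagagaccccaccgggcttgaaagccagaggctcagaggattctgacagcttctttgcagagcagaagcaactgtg
TGGGAA was found at the start itself in Kcnj8 and at position -221 in Abcc9, and on neither strand of the Rgs5 and Rgs4 windows. On either strand, 25.6% of the 32851 promoters of the same length held it. The TATA box TATAAA (13.6% of promoters) was found at -31 in Rgs4, the GC box GGGCGG (35.7%) at -79 on the opposite strand of Abcc9, and the E-box CAGCTG (16.3%) at -27 in Abcc9 and 26 in Rgs5. These matches did not overlap each other. A match is a description of the letters and shows no binding.

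The 6 rule genes were carried unevenly by the members. Their summed count had a median of 13 UMIs (range 3 to 40) and 10 UMIs (3 to 41) per barcode. All 6 were detected in 15 members, 5 in 43, 4 in 44, 3 in 29, 2 in 18 and a single one in 16. Rgs5 was detected in all 165. Ndufa4l2 was detected in 64 of 85 and 46 of 80 members, Notch3 in 53 and 51, Kcnj8 in 47 and 47, Cox4i2 in 47 and 38, and Higd1b in 37 and 25. Members had a median of 4400 and 3276 UMIs, against 2565 and 2526 in leukocyte barcodes, of which 1.21% and 3.44% held an Rgs5 UMI. In the high barcodes Rgs5 reached 1680 and 1647 CPM, against 14.7 and 54.1 CPM over all other barcodes. Notch3 reached 307 and 418 CPM in high barcodes, against 3.62 and 9.02 CPM in all other barcodes. These levels follow from the rule and carry no test.

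The second feature of the members was that nearly all of them also held endothelial transcripts. At least 2 UMIs of the 5 endothelial genes were present in 98.8% of members in library 1 (93.6 to 99.97%) and 93.8% in library 2 (86.0 to 97.9%). The same was true of 4.12% and 5.90% of leukocyte barcodes and of 4.20% and 5.16% of fibroblast barcodes. With every barcode thinned to 1000 UMIs, which left out 1 and 3 members, the share of members was 95.2% and 87.0%, against 1.23% and 3.30% of leukocyte barcodes and 2.77% and 3.91% of fibroblast barcodes. All 5 endothelial genes were detected in 95 of the 165 members, and none of them in 4. The 5 genes had a median sum of 24 and 17 UMIs in members, against 20 and 16 in endothelial barcodes, where at least 2 were required. Single members reached 67 and 68 UMIs, and single endothelial barcodes 53 and 82.

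**Figure D1:**
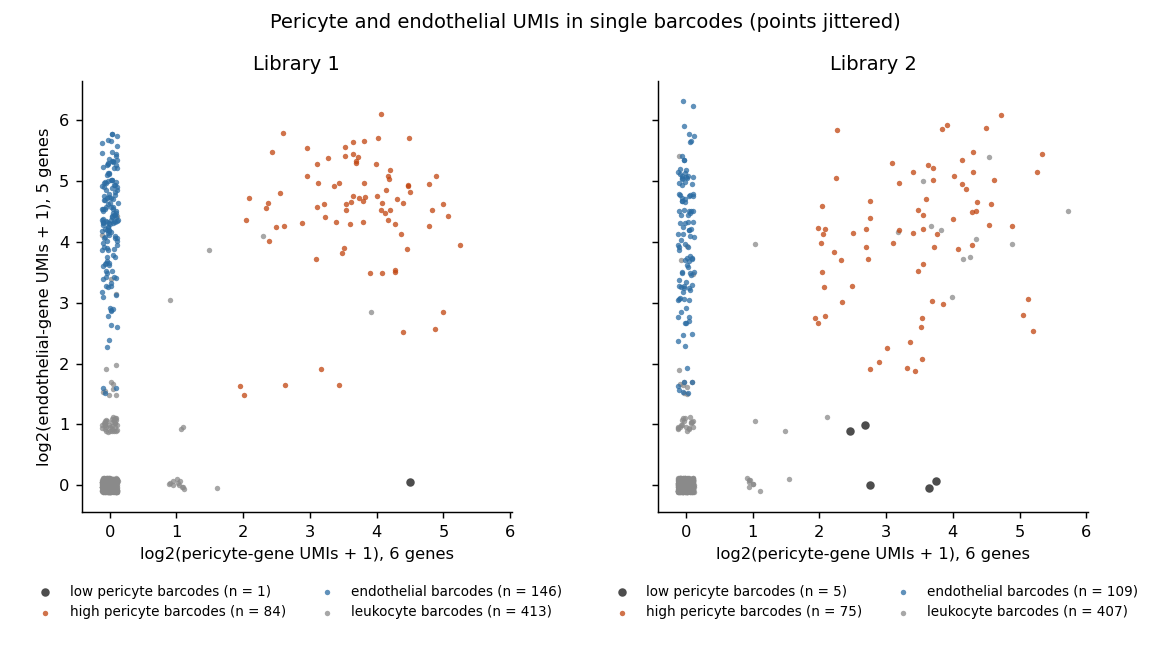
UMIs of the 6 pericyte genes (x axis) and of the 5 endothelial genes (y axis) in single barcodes of each library, both as log2(UMIs + 1), with points jittered and colours giving the class. High barcodes lie in the upper right at endothelial sums like those of the endothelial barcodes on the left edge, while the 6 low barcodes lie near the x axis.

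High barcodes were also deeper than endothelial barcodes. Their median was 4422 and 3335 UMIs, against 1950 and 2184 UMIs in endothelial barcodes, and fibroblast barcodes had 3867 and 3468. The rule itself favours deep high barcodes and shallow endothelial ones, since it asks for at least 3 pericyte UMIs in the former and 0 in the latter. Members had a median of 1859 and 1572 detected genes, against 1017 and 1114 in endothelial barcodes. The low barcodes were shallow, with 2292 UMIs in the only one of library 1 and a median of 1109 in library 2. Scrublet, which scores barcodes by their likeness to simulated mixtures of barcodes from the same library, called 39 doublets in library 1 and 4 in library 2. None of the 165 members was among them, and 7 and 0 endothelial barcodes were. Only 0.241% of the barcodes of library 2 were called, so the caller cannot be said to have worked there. Whether an endothelial UMI in a pericyte barcode came from the same cell, from another cell in the droplet or from free RNA was not tested.

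**Figure D2:**
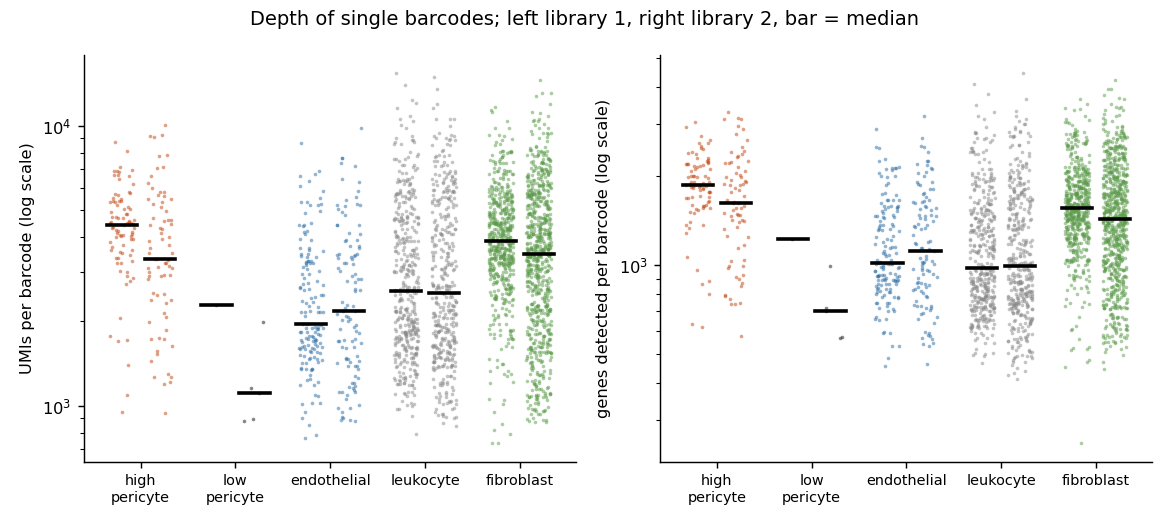
UMIs (left) and detected genes (right) per barcode on log scales by class, with library 1 left and library 2 right within each class and a bar at the median. High pericyte barcodes had a median of 4422 and 3335 UMIs, against 1950 and 2184 in endothelial barcodes.

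Endothelial genes that the rule did not use were present too. The 33 matched blood endothelial markers, which include receptors, adhesion proteins and transcription factors of capillary endothelium, summed to 32030 and 27640 CPM in high barcodes, against 41400 and 34500 CPM in endothelial barcodes. Gene by gene, the level in high barcodes had a median of 84.2% (range 57.0 to 200.1%) and 85.4% (47.8 to 141.3%) of that in endothelial barcodes. The 200.1% was Vwf, with 6 UMIs in high and 3 in endothelial barcodes of library 1. In leukocyte barcodes the median was 2.14% (0.44 to 44.8%) and 4.36% (1.31 to 19.8%) of the endothelial level. In fibroblast barcodes it was 3.47% (0 to 172.5%) and 4.17% (0 to 189%). Cd34 was the highest there, so single markers of the list are not particular to endothelial barcodes. Per barcode, these markers had a median of 140 and 95 UMIs in high barcodes, against 98 and 77 in endothelial barcodes, 1 and 1 in leukocyte barcodes and 5 and 4 in fibroblast barcodes.

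**Figure D3:**
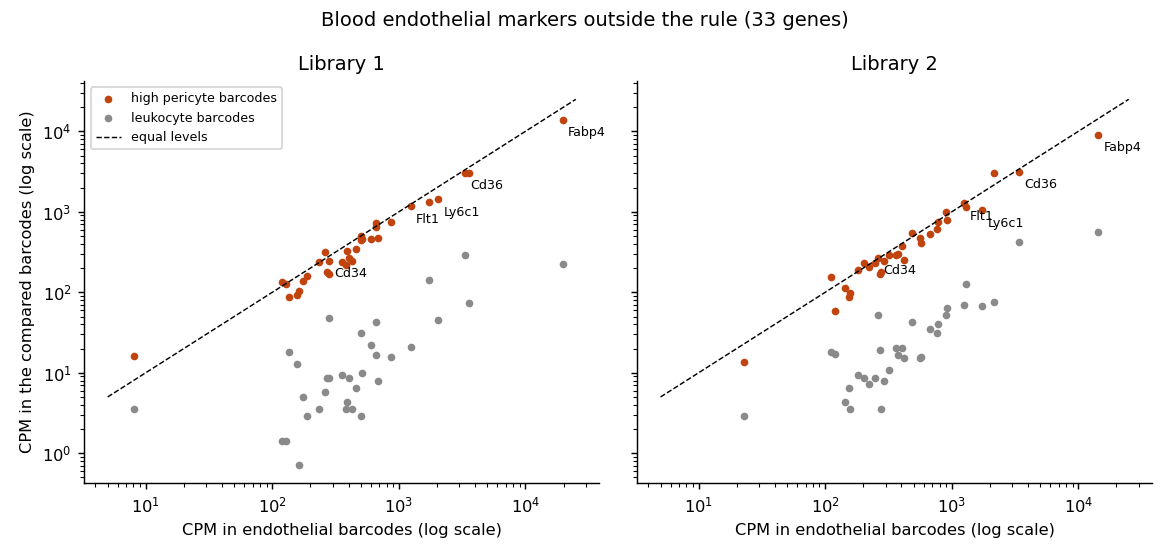
Levels (CPM, log scales) of the 33 blood endothelial markers outside the rule in high pericyte barcodes and in leukocyte barcodes (y axis) against endothelial barcodes (x axis), 1 point per gene and library. The high barcodes run along the line of equal levels at a median of 84.2% and 85.4%, and the leukocyte barcodes lie below it at 2.14% and 4.36%.

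The comparison of high with endothelial barcodes asks which genes accompany the pericyte transcripts once the endothelial ones are present on both sides. It was added after only 6 low barcodes had been found. Counts were summed per library and class and tested with the quasi-likelihood test of edgeR with the library as a block and Benjamini-Hochberg adjustment over all genes. Of 4587 genes outside the rule that passed the filter on low counts, 288 were called at an adjusted p under 0.05 (6.28%), with 207 higher (4.51%) and 81 lower (1.77%) in high barcodes. Over all genes the median log2 fold change was 0.004. DESeq2 size factors moved that median by -0.11 and gave 192 genes higher and 158 lower. The classes were chosen by genes that vary together with others, so the tests are a description of the classes and depend on the rule. With 2 mice the p-values rest on how far the classes' differences varied between the libraries. That spread was estimated with the sums of the low barcodes in the fit, and edgeR draws it toward the trend over all genes.

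Most pericyte markers outside the rule accompanied the rule genes. Of 22 such markers, 15 passed the filter, of which 14 were higher and none lower, beside 4.51% and 1.77% of all tested genes. Their median log2 fold change was 4.22 (4.03 with Heyl, which had no UMI in endothelial barcodes, at its bound), beside 0.004 for all genes. The exception was Mcam, the adhesion molecule CD146 that endothelium carries too, with 142 and 122 CPM against 66.7 and 81.5 CPM (log2 fold change 0.82 ± 0.30 SE, adjusted p = 0.078). DESeq2's Wald test called 10 of them and a fit with no filter on low counts 8. Most of these markers were nearly absent from endothelial barcodes and passed the filter through the high barcodes, so they could only be found higher. For such genes neither the count nor the p-values below give support of their own. The same holds for the called members of the smooth muscle, channel, signalling, matrix and fibroblast lists that had few or no UMIs in endothelial barcodes. Some of the 22 pericyte markers were rare or absent. P2ry14 had no UMI in any member but was detected in 2.42% and 4.67% of leukocyte barcodes. Tbx18 was detected in 1 and 0 members, Foxs1 in 0 and 3, and Ddit4l in 1 and 1. Cspg4, which encodes the proteoglycan NG2, was detected in 10 of 85 and 17 of 80 members.

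Pdgfrb, the receptor for PDGF-B, had 238 and 343 CPM in high barcodes, against 2.67 and 6.52 CPM in endothelial barcodes. This is a ratio of 64.5 (counting interval 21.7 to 315.6) over 190 and 3 UMIs, with an adjusted p of 1.2e-33 in edgeR. It was detected in 48 of 84 and 44 of 75 high barcodes, against 1 of 146 and 2 of 109 endothelial barcodes and 2.91% and 5.65% of leukocyte barcodes. The channel subunit gene Abcc9 had 384.5 and 505.9 CPM in high barcodes and 5.34 and 6.52 CPM in endothelial barcodes (log2 fold change 6.07 ± 0.41 SE, adjusted p = 7.0e-47 in edgeR). It was detected in 59 of 84 and 56 of 75 high barcodes, in 2 endothelial barcodes of each library, and in 0% and 1.97% of leukocyte barcodes. In neither gene did the libraries of the classes overlap.

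Rgs4 had 261.7 and 227.5 CPM in high barcodes, against 0 and 3.26 CPM in endothelial barcodes, which rests on 165 UMIs and 1 UMI. Its ratio was 168.1 with a counting interval of 29.8 to 6677 (adjusted p = 8.0e-32 in edgeR). Vtn, which encodes vitronectin, had 144 and 126 CPM in high barcodes and 2.67 and 0 CPM in endothelial barcodes. Steap4, a metalloreductase gene, had 302 and 387 CPM in high barcodes against 5.34 and 19.6 CPM (log2 fold change 4.77 ± 0.37 SE, adjusted p = 9.1e-35 in edgeR). Gja4, which encodes the gap-junction protein connexin 37, had 115 and 129 CPM against 5.34 and 6.52 CPM (4.22 ± 0.53 SE, adjusted p = 9.2e-14 in edgeR). Heyl, a target gene of Notch, had 37.4 and 34.0 CPM in high barcodes and no UMI in endothelial barcodes. Its difference was called at an adjusted p of 0.00033 in edgeR, but Heyl, with no endothelial UMI, could only be found higher. Its level was at least 4.67-fold and 3.47-fold above the limit of 3 UMIs. Mfge8, which encodes a secreted glycoprotein, had 588 and 441 CPM against 141 and 117 CPM (1.97 ± 0.22 SE, adjusted p = 1.1e-16 in edgeR). Ebf1, a transcription factor gene, had 876 and 842 CPM against 446 and 502 CPM (0.84 ± 0.18 SE, adjusted p = 0.00010 in edgeR).

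**Figure D4:**
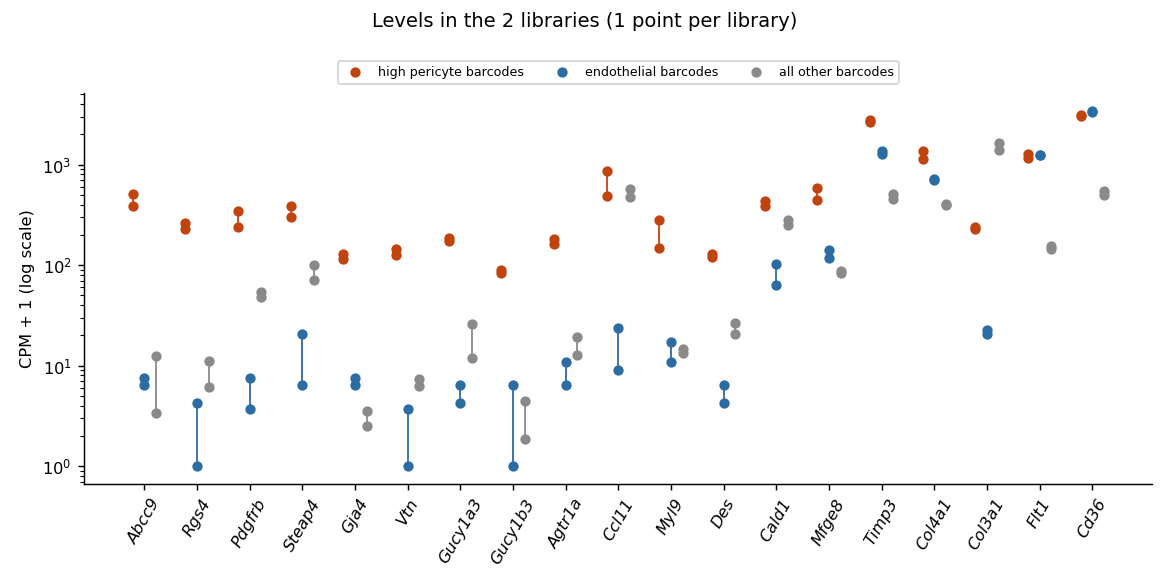
Levels (CPM + 1, log scale) of 19 genes in high pericyte barcodes, endothelial barcodes and all other barcodes, with 1 point per library joined by a line. Abcc9, Rgs4 and Pdgfrb lie far above both other classes in high barcodes, whereas Flt1 and Cd36 lie close to the endothelial barcodes.

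Among all genes outside the rule, those with the largest positive fold changes (average log2 CPM of at least 5) included several that had no UMI in endothelial barcodes. Such genes passed the filter through the high barcodes and could only be found higher. Col6a3, which encodes a chain of collagen VI, had 120 and 163 CPM in high barcodes, at least 15-fold and 16.7-fold above the limit that 0 UMIs allow. Sox11, a transcription factor gene, had 93.5 and 129 CPM, at least 11.7-fold and 13.2-fold above it. Arhgef17 had 88.1 and 78.1 CPM, at least 11-fold and 7.98-fold above it. Also at 0 in endothelial barcodes were Egflam, Pde3a, Pla2r1, Lin7a, Vstm4, Ccdc3 and Arhgap42, at 37.4 to 72.1 CPM in the high barcodes of either library. Aspn, which encodes the small matrix proteoglycan asporin, had 208 and 180 CPM in high barcodes and 0 and 3.26 CPM in endothelial barcodes (131 UMIs and 1 UMI). Without the filter on low counts Arhgef17, Egflam, Pla2r1, Lin7a, Vstm4, Ccdc3 and Arhgap42 lost the call, and Arhgef17 also lost it in DESeq2's Wald test.

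Contractile genes were represented by part of their list. Of 20 smooth muscle genes, 11 passed the filter. Of these 7 were higher in high barcodes and none lower, beside 4.51% and 1.77% of all tested genes. Their median log2 fold change was 1.38, beside 0.004 for all genes. DESeq2's Wald test called 5 and a fit with no filter on low counts 4. Myl9, a myosin light chain gene, had 283 and 146 CPM in high barcodes against 16 and 9.78 CPM in endothelial barcodes (log2 fold change 3.99 ± 0.40 SE, adjusted p = 1.7e-21 in edgeR). Des, which encodes the intermediate filament desmin, had 128 and 119 CPM against 5.34 and 3.26 CPM. Cald1, which encodes caldesmon, had 433 and 387 CPM against 101 and 62.0 CPM. Tagln had 171 and 95.1 CPM against 64.1 and 35.9 CPM, where 23 of the 24 UMIs of the endothelial barcodes of library 1 came from 1 barcode.

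The defining genes of contractile smooth muscle were sparse or at 0. Acta2, smooth muscle actin, had 58.7 and 3.40 CPM in high barcodes, as 22 UMIs in 15 of 84 barcodes of library 1 and 1 UMI in library 2. Myh11, smooth muscle myosin, had 18.7 and 13.6 CPM, or 7 and 4 UMIs. Cnn1 had 0 and 3.40 CPM, and Actg2, Myocd and Pln had no UMI in high barcodes, which allows up to 8.01 and 10.2 CPM. All of these genes stayed under the filter on low counts and were not tested.

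Genes that set vessel tone were partly higher in high barcodes. Of 26 matched channel, pump and tone-signalling genes, 11 passed the filter. Of these 7 were higher and none lower, beside 4.51% and 1.77% of all tested genes. Their median log2 fold change was 4.13 (2.72 with Pde3a, at 0 in endothelial barcodes, at its bound), beside 0.004 for all genes. A fit with no filter on low counts called 5. The subunits of the nitric oxide receptor guanylate cyclase were both among them. Gucy1a3 had 174 and 183 CPM in high barcodes and 5.34 and 3.26 CPM in endothelial barcodes, and Gucy1b3 had 88.1 and 81.5 CPM against 5.34 and 0 CPM. Agtr1a, the gene of an angiotensin II receptor, had 160 and 180 CPM against 5.34 and 9.78 CPM (log2 fold change 4.4 ± 0.47 SE, adjusted p = 6.1e-19 in edgeR). Atp1b2, a sodium pump subunit gene, had 155 and 64.5 CPM against 2.67 and 9.78 CPM, and Slc12a2, a chloride cotransporter gene, had 93.5 and 129 CPM against 16 and 32.6 CPM. Ednrb, an endothelin receptor gene, had 174 and 177 CPM against 131 and 166 CPM and was not called (adjusted p = 0.77 in edgeR). The smooth muscle potassium channel genes Kcnma1 and Kcnmb1 had no UMI in either class.

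The rule genes Cox4i2, Ndufa4l2 and Higd1b have widely expressed relatives, which the rule did not use. Ndufa4 was lower in high barcodes, at 248 and 204 CPM against 395 and 342 CPM in endothelial barcodes (log2 fold change -0.73 ± 0.21 SE, adjusted p = 0.0088 in edgeR), a call that was lost without the library block and without the filter on low counts. Cox4i1 had 780 and 764 CPM against 865 and 858 CPM (adjusted p = 0.71), and Higd1a had 82.8 and 105 CPM against 101 and 134 CPM (adjusted p = 0.67), neither of them called. Of the 4 genes of the list that were tested, 1 was lower and none higher, beside 1.77% and 4.51% of all tested genes. Their median log2 fold change was -0.26, beside 0.004 for all genes. Against all other barcodes Ndufa4 was lower as well, at 385 and 355 CPM in those (log2 fold change -0.94, adjusted p = 2.0e-06 in edgeR). The comparisons share the high barcodes.

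Ligands of the endothelium and receptors of mural cells were both found in the high barcodes. Of 30 ligand, receptor and target genes, 24 passed the filter, 3 were higher (Pdgfrb, Heyl and S1pr3) and 1 was lower (Edn1). Over all tested genes 4.51% were higher and 1.77% lower. The median log2 fold change of the 24 was -0.17, beside 0.004 for all genes. S1pr3, a receptor gene for sphingosine 1-phosphate, had 112 and 81.5 CPM in high barcodes and 0 and 3.26 CPM in endothelial barcodes. Pdgfrb, Heyl and S1pr3 had 3, 0 and 1 UMIs in endothelial barcodes. They passed the filter through the high barcodes and could only be found higher, so their calls give no support of their own. Edn1, which encodes endothelin 1, had 29.4 and 20.4 CPM in high barcodes against 107 and 55.4 CPM (log2 fold change -1.72 ± 0.43 SE, adjusted p = 0.0014 in edgeR), a call lost against endothelial barcodes without lymphatic or red-cell UMIs, in DESeq2's Wald test and without the filter on low counts. The ligand gene Pdgfb had 58.7 and 74.7 CPM in high barcodes against 37.4 and 78.3 CPM in endothelial barcodes (adjusted p = 0.88). The Notch ligand gene Dll4 had 155 and 166 CPM against 198 and 228 CPM (adjusted p = 0.37), and Kdr, the main VEGF receptor, 462 and 618 CPM against 515 and 770 CPM (adjusted p = 0.52). Flt1, another VEGF receptor gene, had 1172 and 1277 CPM in high barcodes and 1241 and 1255 CPM in endothelial barcodes, with overlapping libraries (log2 fold change -0.06 ± 0.17 SE). For these genes no difference was detectable with 2 libraries, which does not show that the levels were equal.

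In the same fit, 32 of the 33 blood endothelial markers were tested. Of these 3 were lower and none higher in high barcodes, beside 1.77% and 4.51% of all tested genes. Their median log2 fold change was -0.30, beside 0.004 for all genes. Ly6c1 had 1426 and 1042 CPM in high barcodes against 2036 and 1741 CPM, Ecscr 243 and 177 CPM against 424 and 274 CPM, and Ramp2 176 and 166 CPM against 270 and 271 CPM. DESeq2 size factors made 10 of them lower, and none was called without the library block. Fabp4, a fatty acid carrier of capillary endothelium, had 13870 and 9126 CPM in high barcodes against 19680 and 14420 CPM (log2 fold change -0.61 ± 0.25 SE, adjusted p = 0.16 in edgeR). Cd36, a fatty acid uptake gene, had 3073 and 3110 CPM against 3347 and 3414 CPM and was detected in every high barcode.

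Genes of a list that joins the basement membrane with other matrix were higher in part. Of 21 genes 15 passed the filter, 7 were higher and none lower, beside 4.51% and 1.77% of all tested genes. Their median log2 fold change was 0.52, beside 0.004 for all genes. DESeq2's Wald test called 3, a fit with no filter on low counts 2, a fit without the library block 5 and a fit without called doublets 4. Col4a1, a collagen IV chain gene, had 1140 and 1351 CPM in high barcodes against 715 and 695 CPM (log2 fold change 0.78 ± 0.17 SE, adjusted p = 0.00018 in edgeR). Timp3, an inhibitor of metalloproteinases, had 2780 and 2665 CPM against 1369 and 1278 CPM (1.01 ± 0.18 SE). Bgn, which encodes biglycan, had 240 and 214 CPM against 24.0 and 16.3 CPM (3.42 ± 0.36 SE). The laminin gene Lama4 (adjusted p = 0.90), the nidogen gene Nid1 (0.39) and the perlecan gene Hspg2 (1.00) were not called.

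Markers of other cell types moved with these results and their part in them was not tested. Of 10 fibroblast markers besides Dcn, 4 were tested and all 4 were higher in high barcodes, beside 4.51% of all tested genes. The list summed to 887 and 991 CPM, against 315 and 323 CPM in endothelial barcodes and 28720 and 22380 CPM in fibroblast barcodes. Col3a1 had 230 and 241 CPM in high barcodes against 21.4 and 19.6 CPM, and Col1a1 93.5 and 119 CPM against 18.7 and 9.78 CPM. The defining fibroblast gene Pdgfra had no UMI in high barcodes. All 6 tested of 11 leukocyte markers were lower in high barcodes, beside 1.77% of all tested genes. Their list summed to 502 and 397 CPM in high barcodes against 2026 and 2234 CPM in endothelial barcodes. All 4 tested erythroid genes were lower, and that list of 5 summed to 932 and 2224 CPM against 15120 and 22180 CPM. None of the 3 that could be tested after removal of the doublets called by Scrublet was called, and against endothelial barcodes chosen to hold no red-cell UMI 3 were higher by that choice. Lymphatic markers summed to 37.4 and 71.3 CPM in high barcodes, with Mmrn1 and Reln at 0, against 411 and 117 CPM in endothelial barcodes. The lymphatic chemokine gene Ccl21a (the row ENSMUSG00000094686) had no UMI in high barcodes, against 1062 and 355 CPM in endothelial barcodes. Against endothelial barcodes with neither kind of UMI, 264 genes were called, 199 higher and 65 lower, and 14 pericyte markers were called.

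Among genes that stromal cells use to act on immune cells, the chemokine gene Ccl11, which encodes the eosinophil attractant eotaxin, was higher. It had 860 and 482 CPM in high barcodes against 8.01 and 22.8 CPM in endothelial barcodes (log2 fold change 5.46 ± 0.33 SE, adjusted p = 1.3e-56 in edgeR). A Ccl11 UMI was present in 67 of 84 and 40 of 75 high barcodes, in 2 of 146 and 7 of 109 endothelial barcodes, and in 9.44% and 11.1% of leukocyte barcodes. All other barcodes together, fibroblasts included, had 577 and 476 CPM, and that difference was not called (0.09, adjusted p = 0.67). Il6 had 200 and 88.3 CPM in high barcodes against 66.7 and 29.4 CPM in endothelial barcodes (1.56 ± 0.32 SE, adjusted p = 4.5e-05 in edgeR), but 27 of its 75 UMIs in library 1 came from 1 barcode. Ccl7 was lower, at 18.7 and 50.9 CPM against 182 and 104 CPM. Il33, a cytokine that activates type 2 innate lymphoid cells, had no UMI in high or endothelial barcodes, against 34.3 and 40.3 CPM in all other barcodes. Of 27 genes of this immune-acting list 13 were tested, 2 higher and 1 lower, beside 4.51% and 1.77% of all tested genes. Their median log2 fold change was 0.07, beside 0.004 for all genes.

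The high barcodes were also set against all other barcodes, the 1399 and 1579 that are not members, which include the endothelial ones. In the fit that held the low sums, about as many tested genes were called as not. Of 5231 genes tested outside the rule 2687 were called (51.4%), 1240 higher (23.7%) and 1447 lower (27.7%), with a median log2 fold change of -0.06. A fit without the low sums called 4021 genes, and with all pericyte barcodes as 1 class 4002, so the count depends on the fit. Leukocyte and fibroblast genes are bound to be lower here because the rule removed barcodes with Ptprc or Dcn. Of 32 endothelial markers tested 31 were higher and 1 (Cd34) was lower, and of 16 pericyte markers 15 were higher. High barcodes were chosen for UMIs of both kinds, so markers that vary with the rule genes were favoured to be higher. These 2 list counts therefore give no support of their own. Of the genes that averaged 5 or more log2 CPM, Abcc9 had the largest positive fold change, at 384.5 and 505.9 CPM against 2.34 and 11.5 CPM in all other barcodes (log2 fold change 5.79 ± 0.22 SE, adjusted p = 7.5e-143 in edgeR). Gm13889, listed without a named product, followed with 809 and 513 CPM against 8.51 and 19.6 CPM, and against endothelial barcodes it had 21.4 and 9.78 CPM in those. Tinagl1, a matrix protein gene, had 470 and 445 CPM against 53.6 and 39.3 CPM. These other barcodes include 36 with a pericyte sum of at least 3 that the Ptprc or Dcn limit kept out, 10 and 26 by library.

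The low barcodes, the nearest to pericytes without endothelial transcripts, were too few to define a pericyte profile. The 6 held 2292, 1986, 1154, 1109, 893 and 881 UMIs, the first from library 1. Their pericyte sums, in that order, were 22, 12, 5, 6, 6 and 12 UMIs, and their sums of the 5 endothelial genes 0, 0, 1, 1, 0 and 0. They held 49, 35, 23, 15, 4 and 7 UMIs of the 33 endothelial markers outside the rule, from 9, 3, 8, 7, 3 and 3 genes. Of these UMIs, Fabp4 gave 35, 31, 12, 5, 1 and 5, and its cell source was not tested. Fibroblast barcodes, which were deeper, held a median of 5 and 4 UMIs of the same markers. Sums of 4 and 7 UMIs therefore do not by themselves show endothelial content. A single UMI was worth 436.3 CPM in library 1 and 166 CPM in library 2, so genes below 1309 and 498 CPM could be missed.

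The low barcodes held UMIs of both the pericyte and the endothelial marker lists. The 33 endothelial markers outside the rule summed to 21380 and 13950 CPM in them, of which Fabp4 gave 15270 and 8966 CPM. In high barcodes the 33 summed to 32030 and 27640 CPM. The 22 pericyte markers outside the rule gave 20 and 49 UMIs per library. This was 8726 and 8135 CPM, against 718 and 779 CPM in endothelial barcodes. Ccl11 had 11 and 12 UMIs, Mfge8 8 and 7, Rgs4 2 and 6, Abcc9 1 and 6, and Aspn 2 and 7. Against endothelial barcodes, 262 of 4587 genes were called (5.71%), 39 higher (0.85%) and 223 lower (4.86%). Of the pericyte markers 6 of 15 tested were higher, and of the endothelial markers 17 of 32 were lower. The rule set the pericyte and endothelial sums of both classes and so favoured these directions. These list counts give no support of their own. With no filter on low counts edgeR called 0 genes (869 at an unadjusted p under 0.05), DESeq2's Wald test called 145, and DESeq2 size factors gave 43 higher and 48 lower. Against all other barcodes 359 of 5231 genes were called (6.86%), 17 higher (0.325%) and 342 lower (6.54%), and Rgs4, Abcc9 and Myl9 led those that were higher.

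High barcodes exceeded low barcodes in 210 of 5231 genes (4.01%) and were lower in 0 (0%), where edgeR gave 10 genes at an unadjusted p under 0.05. The first of these by fold were Iigp1, Rgcc, Flt1, Ly6e and Kdm6b, each with no UMI in the 6 low barcodes. Flt1 had 1172 and 1277 CPM in high barcodes, which in library 1 is under the limit of 1309 CPM that 0 UMIs of the low barcode allow. Of the 16 pericyte markers tested none was called between high and low. These tests are unreliable, because a low class of 2292 and 6023 UMIs gives median log2 fold changes of 5.16 (high against low) and -8.00 (low against other barcodes) over all genes. DESeq2's Wald test called 1 gene between high and low barcodes, and the fit on thinned barcodes none (0).

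Endothelial and pericyte levels were also compared along the pericyte sum, without a test, among barcodes with no Ptprc, at most 2 Dcn and, below the threshold, at least 2 endothelial UMIs. Just outside the threshold, at a sum of 2, there were 8 and 7 barcodes with 549 and 1195 CPM of the 22 pericyte markers outside the rule. Just inside, at a sum of 3, there were 4 and 10 members with 3033 and 2161 CPM. At sums of 4 to 5, in 9 and 8 members, it was 962 and 1426 CPM, so the level did not climb evenly. At 15 UMIs or more it was 4414 and 4195 CPM in 34 and 22 members, against 718 and 779 CPM at a sum of 0. Ebf1, detected in 62.3% and 64.2% of endothelial barcodes, gave much of the level there. Without it the level was 3313 and 3205 CPM at 15 or more, against 272.2 and 277.2 CPM at 0. Over the same range, the 5 endothelial genes had 8542 and 7007 CPM at a sum of 0, 6571 and 5423 CPM at 3, and 4646 and 4976 CPM at 15 or more. Median depth was 4579 and 5542 UMIs in the members with 15 or more, against 1950 and 2184 UMIs at a sum of 0. A fixed sum is reached more easily in a deep barcode, and the share of this trend due to depth was not tested.

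**Figure D5:**
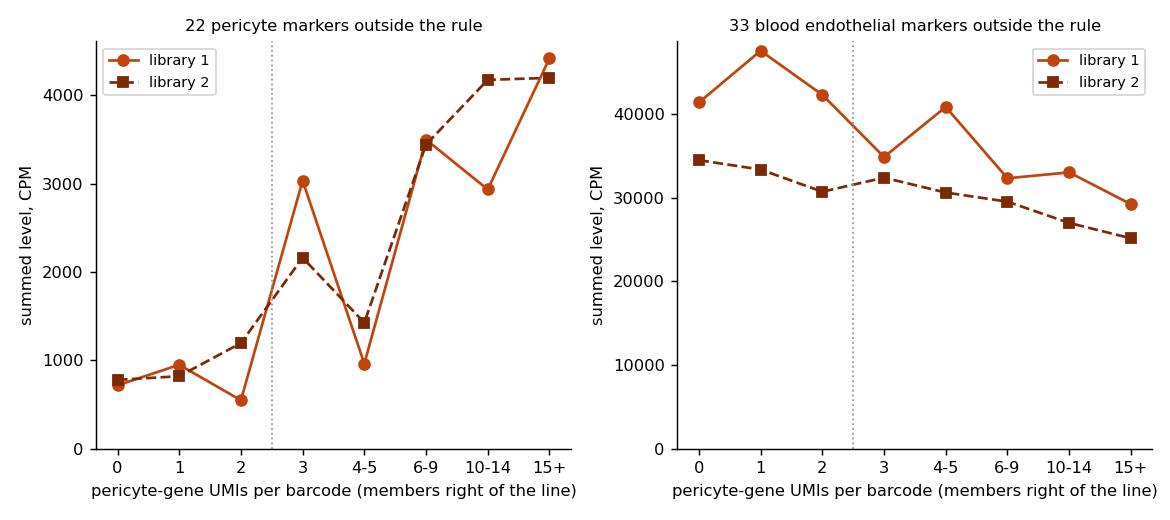
Summed levels (CPM, linear axes from 0) of 22 pericyte markers (left) and 33 blood endothelial markers (right) outside the rule in barcodes grouped by their UMIs of the 6 pericyte genes, with 1 line per library. Members lie right of the dotted line. The pericyte markers reach 4414 and 4195 CPM at 15 or more UMIs. The endothelial markers are lower there, at 29240 and 25160 CPM, than at 0, where they have 41400 and 34500 CPM.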

How the data were processed

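The authors deposited UMI counts, whole numbers that no header describes as normalized, for 27998 genes and 3204 barcodes. The submitters' processing notes name Cell Ranger and mm10, without a version. The barcode suffix was matched by number to the mouse. Library totals were 5137671 and 5563521 UMIs. The barcode filters removed 61 barcodes. Members and gene lists were chosen with earlier results of these data known. Of 273 listed genes, 268 matched exactly 1 row. Genes of the rule were kept in the fits and in the adjustment but left out of counts.

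For each class the counts of a library were added up, and the 6 sums of a fit were tested with edgeR 4.0.16 (glmQLFit and glmQLFTest, TMM, filterByExpr) in R 4.3.3, calls at an adjusted p of 0.05. Library was a block because the same animal gave every class; the library differences of high and endothelial sums correlated at 0.177 over genes (offset 10 CPM). Scrublet was run in scanpy 1.11.5, thinning used seed 0, and DESeq2 was version 1.42.0. Intervals are exact Clopper-Pearson at 95%, limits for a count of 0 are 3 counts per library, and both cover counting error only. Steps were tested on simulated data, where the comparisons with low barcodes also made false calls. Named genes were the 12 largest positive and 8 largest negative called fold changes per comparison that agreed in sign between libraries and averaged 5 or more log2 CPM, plus up to 8 members per list by level in low barcodes; other list members were named after their values were seen. Positions are from GENCODE M21 (GRCm38), which held 27645 of the 27998 gene IDs, and promoters from RefSeq. Alternatives were other normalizations and tests, no filter, no block, other rule thresholds, thinning, stricter barcode filters, doublet removal, each library left out and, added after the data were seen, fits without low sums, with all pericyte barcodes as 1 class and with cleaner endothelial barcodes.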

Additional observations from a re-analysis of the deposited data

Results flagged for a closer look

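Among the 61 barcodes that failed the gene or mitochondrial filter and entered no comparison, 4 met the rest of the pericyte rule, 2 in each library. Among the 3143 barcodes that passed, 165 met the rule. The 4 are counted because they lie outside the comparisons.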

How the results depend on the processing

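In high against endothelial barcodes (288 calls), DESeq2's Wald test gave 153, no filter on low counts 65, thinned barcodes 81 and all pericyte barcodes as 1 class 440. In high against other barcodes (2687) the Wald test gave 1637 and thinned barcodes 455. Others limited to Ptprc 0 and Dcn at most 2 gave 1791 there. The fit without the low sums gave 4021 and all pericyte barcodes as 1 class 4002. In low against other barcodes (359) DESeq2 size factors gave 171 (30 higher, 141 lower), the Wald test 236 and thinning 199. In low against endothelial barcodes (262) size factors gave 91 (43 higher, 48 lower, with the median of all genes shifted by 0.59), the Wald test 145, no filter 0 and thinning 58. In high against low barcodes (210) size factors gave 13, the Wald test 1 and thinning 0. Fewer genes could be tested after thinning; the cause of the other shifts was not tested.

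Thinning left 47 and 55 pericyte barcodes by library. The median level of endothelial markers in high barcodes, 84.8% of that in endothelial barcodes as a mean of the libraries, was 83.2% at a pericyte sum of at least 5, 85.9% with the split at 1 and 4, 72.5% after thinning (63.4% in library 1 and 81.6% in library 2), 82.0% with stricter barcode filters, 81.6% without called doublets, 79.7% against cleaner endothelial barcodes and 84.2 to 85.4% with 1 library left out.

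Without the replicate block, calls numbered 239 in high against endothelial barcodes, 2517 in high against other barcodes, 377 and 495 in low against endothelial and other barcodes, and 294 in high against low barcodes. With 1 library left out no residual degrees of freedom remain, so counts of calls have no such value; the sign of named genes in each library was a condition of naming them.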

Other observations

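Dissociation and early-response genes were also read. Of 21 such genes, all tested, 1 was higher in high than in endothelial barcodes (Nr4a1, at 598 and 706 CPM against 427 and 333 CPM, adjusted p = 0.0017 in edgeR, lost without the library block, without the filter on low counts and in DESeq2's Wald test) and none lower. In that comparison 4.51% of all tested genes were higher and 1.77% lower. Against all other barcodes 15 of the 21 were higher and none lower, beside 23.7% of all genes higher. DESeq2 size factors gave 12, a fit without the library block 11 and DESeq2's Wald test 3. Fos had 3741 and 3609 CPM in high barcodes, against 3568 and 3195 CPM in endothelial barcodes and 1221 and 1487 CPM in all other barcodes.

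Adipocyte transcripts were present in both classes of vascular barcodes. Car3 had 377 and 713 CPM in high barcodes, against 504 and 802 CPM in endothelial barcodes and 77.2 and 120.5 CPM in all other barcodes. Of 6 adipocyte markers tested against endothelial barcodes none was called by edgeR or by DESeq2's Wald test, and 1 was lower with DESeq2 size factors.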
